A study of Mus musculus with 10 samples.

Results

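The genes described here are 9 transcription factors of the myeloid lineage, taken by name from a count table of 24453 genes: Spi1, Irf8, Runx1, Sall1, Maf, Mitf, Tfec, Tfeb and Cebpa. All 9 were found in the table, and their reads were followed through 10 RNA-seq libraries from layer 5 of the mouse primary motor cortex (M1). The libraries came from intratelencephalic projection neurons (IT-PNs), the cortical pyramidal cells whose axons stay within the forebrain, sorted by whether they expressed GFP under the control of Fezf2 regulatory elements. There were 5 libraries of Fezf2+ IT-PNs and 5 of Fezf2- IT-PNs, 1 of each type from each of 5 animals, and the comparison asks how the transcriptomes of these neighbouring cell types differ.

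All animals were males that carried the (Zfp312-EGFP)CO61GsatMmnc reporter transgene as hemizygotes on a Swiss Webster background. Each received the retrograde tracer cholera toxin subunit b, coupled to an Alexa dye, in the left M1 at postnatal day 23 to 25, and layer 5 of the right M1 was collected at postnatal day 28 to 32. Fezf2+ IT-PNs were sorted as cells with both GFP and tracer, and Fezf2- IT-PNs as cells with tracer alone, so both types came from the same treated animals and the type rests on a reporter rather than on the Fezf2 transcript. By the labels, a sort gave 11280 Fezf2+ cells and 2688 Fezf2- cells on average. For the Fezf2- cells another source on the same sort gives a higher mean.

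Myeloid cells are made and kept by a small circuit of transcription factors. PU.1, the product of Spi1, opens myeloid enhancers together with Runx1, Cebpa and Irf8, and in the brain Sall1 and Maf belong to the programme that gives microglia, the resident macrophages, their identity. Mitf, Tfec, Tfeb and Tfe3 form the MiT/TFE family, basic helix-loop-helix leucine zipper proteins that bind E-box sequences as dimers and switch on genes of the lysosome, of autophagy and, for Mitf, of melanocytes and osteoclasts.

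The libraries were shallow. Reads assigned to genes ranged from 107643 to 203379 in the Fezf2+ libraries and from 89138 to 217738 in the Fezf2- libraries, so that 1 read was worth between 4.59 and 11.2 CPM, the reads of a gene scaled to the total of its library. Between 3990 and 7918 genes had a read in a library, and the 10 most abundant genes took between 13.3% and 57.1% of its reads. RNA was amplified by PCR and in vitro transcription with no molecular identifiers, so the counting intervals and floors given below cover counting error only.

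Of 17 listed markers of cortical projection neurons, 15 had reads. This does not check the neuronal label, because all 25 listed microglial markers and 9 of 10 oligodendrocyte markers had reads as well. The most abundant neuron markers were Foxp2 with 1280 reads, Rorb with 728, Camk2a with 588 and Cux1 with 412, most of them in the Fezf2- libraries of animals 1 and 3. Fezf2 had 1 read in all, in the Fezf2+ library of animal 5, and its partner in deep-layer identity, Bcl11b, also had 1 read. Slc17a7, the vesicular glutamate transporter of cortical pyramidal cells, had between 0 and 3 reads per library, while Tbr1 and Crym had none. Fezf2 reads therefore did not separate the types, and the groups are those of the labels.

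Together the 9 factors had 11 reads in the Fezf2+ libraries and 454 in the Fezf2- libraries. In Fezf2+ IT-PNs the sum was 2, 1, 2, 4 and 2 reads for animals 1 to 5, and in Fezf2- IT-PNs it was 21, 5, 299, 5 and 124 reads in the same order. Expressed per library, the mean was 15.9 CPM ± 6.94 (SD, n = 5) in Fezf2+ and 509 CPM ± 740 (SD, n = 5) in Fezf2- IT-PNs. The Fezf2- library was higher in animals 1, 2, 3 and 5, whereas in animal 4 the values were 26.4 CPM (95% Clopper-Pearson interval, 7.19 to 67.6) in Fezf2+ and 23.7 CPM (7.68 to 55.2) in Fezf2-, a pair that could not be separated at this depth. The spread was carried by animals 3 and 5, whose Fezf2- libraries held 423 of the 465 reads, or 91.0%. Since these are bulk libraries, fewer cells of a type and less RNA per cell cannot be told apart in any of these values.

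Runx1 and Mitf made up 89.7% of the reads, and the other members were close to the limit of detection. Counting every member in every library, a read was found in 20 of 45 gene-library pairs in Fezf2- IT-PNs and in 7 of 45 in Fezf2+ IT-PNs. As shares these are 44.4% and 15.6%, beside 44.4% and 38.9% over all 14508 genes with at least 1 read in the table. At least 3 reads, the floor used here for a detectable level, were reached in 11 pairs in Fezf2- and in 1 pair in Fezf2+ IT-PNs. The share over all genes at this floor is not given, so these counts are a description only. After all libraries were downsampled to 89138 reads, 16 pairs in Fezf2- and 6 in Fezf2+ IT-PNs held a read. The share over all genes at that depth is not given either, so these counts are also a description only.

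Over the whole table, a quasi-likelihood fit in edgeR, blocked by animal, called 0 of 7409 genes at a false discovery rate of 0.1 or below (Benjamini-Hochberg), which is 0.0%. An unadjusted p under 0.05 was reached by 284 genes, of which 170, or 2.29% of those tested, were lower in Fezf2+ IT-PNs. Without the block 279 genes were called, 159 of them (2.15%) lower in Fezf2+ IT-PNs. DESeq2 with the block called 98 genes, of which 55 were lower in Fezf2+ IT-PNs, or 3.31% of the 1664 genes to which it gave an adjusted p. Of the 9 factors, 5 passed the filter of at least 10 CPM in at least 2 libraries, namely Mitf, Runx1, Spi1, Irf8 and Maf, and each passed through its Fezf2- libraries or, for Irf8, mostly so. Among these the test with the block called none, the fit without the block called Runx1, DESeq2 called none, and an unadjusted p under 0.05 with the block was reached by Mitf alone. None of the 9 was higher in the Fezf2- library in 5 of 5 animals, a pattern shown by 193 tested genes (2.6%), and none had its lowest Fezf2- library above its highest Fezf2+ library, as 60 tested genes (0.81%) had.

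**Figure D1:**
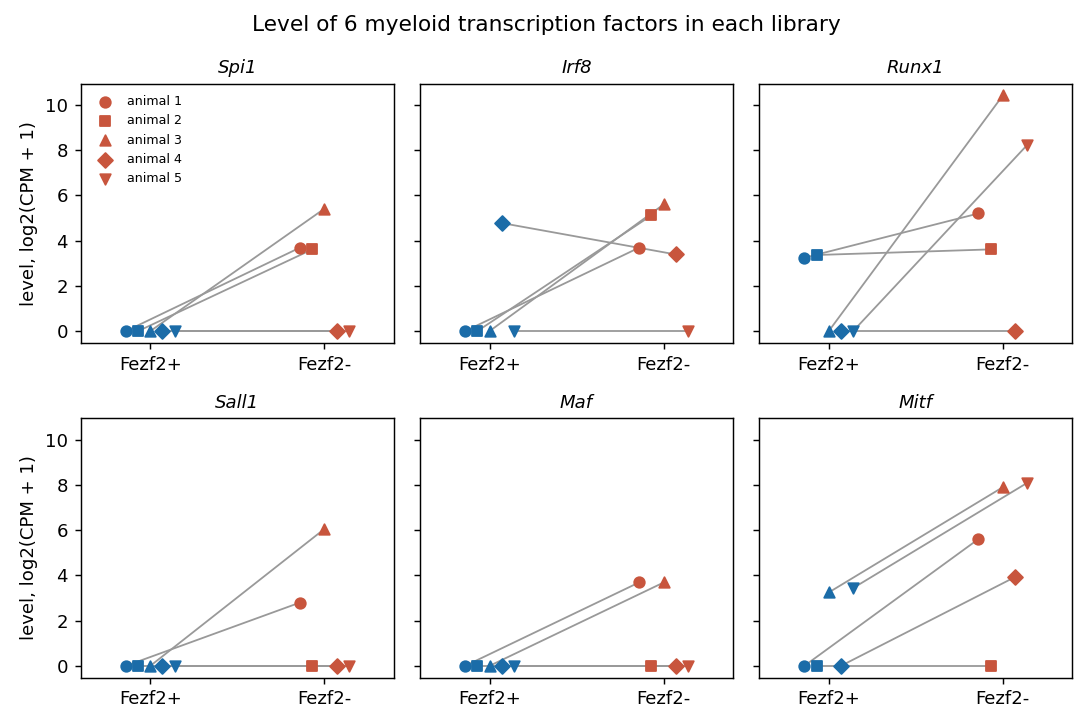
Level of 6 of the 9 factors in each library, as log2(CPM + 1), with a line joining the libraries of 1 animal; blue points are Fezf2+ and orange points Fezf2- IT-PNs. Runx1 and Mitf reach high levels in the Fezf2- libraries of animals 3 and 5, and most other points lie at 0 or at the level of a few reads.

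Mitf, the MiT/TFE factor best known from melanocytes and osteoclasts, showed the smallest p of the group. Its reads in Fezf2+ IT-PNs were 0, 0, 1, 0 and 2 for animals 1 to 5, and in Fezf2- IT-PNs 8, 0, 40, 3 and 59. The Fezf2- library was thus higher in 4 of 5 animals, animal 2 had no read in either library, and the groups overlapped. In level the means were 3.66 CPM ± 5.04 (SD, n = 5) in Fezf2+ and 114 CPM ± 130 (SD, n = 5) in Fezf2- IT-PNs. Pooling reads over each group, Mitf was 29.97-fold higher in Fezf2- IT-PNs (95% exact counting interval, 9.99 to 148). The fitted log2 fold change, Fezf2+ over Fezf2-, was -4.60 ± 1.47 (SE), with an unadjusted p under 0.05 and adjusted p = 0.999 by edgeR (Benjamini-Hochberg); the adjusted p over all alternatives ranged from 0.128 to 1.00. A paired exact permutation test of log2(CPM + 1) gave a mean difference, Fezf2- minus Fezf2+, of 3.77 ± 2.19 (SD, n = 5) with exact two-sided p = 0.125. This is the lowest p the test could give here, because animal 2 has no difference; with differences in all 5 animals the lowest would be 0.0625.

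The size of the Mitf ratio rested on the Fezf2- libraries of animals 3 and 5, and leaving out either one kept the other. Without animal 3 the pooled ratio was 29.6 (7.90 to 249), and without animal 5 it was 39.7 (6.80 to 1597). With both left out, 11 reads in Fezf2- stood against 0 in Fezf2+ IT-PNs, which is at least 2.95-fold higher when the Fezf2+ group is set at a floor of 3 reads over the group. These leave-out ratios were chosen after seeing the data.

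Runx1, a DNA-binding partner of CBFB that is needed for blood cell formation and is active in myeloid cells, had the most reads of the 9. In Fezf2+ IT-PNs the counts were 1, 1, 0, 0 and 0 for animals 1 to 5, against 6, 1, 230, 0 and 65 in Fezf2- IT-PNs. The Fezf2- value was higher in 4 animals, although in animal 2 the pair was 1 read against 1, separated only by the library totals, and animal 4 had none. The mean was 3.55 CPM ± 4.87 (SD, n = 5) in Fezf2+ and 342 CPM ± 584 (SD, n = 5) in Fezf2- IT-PNs. One library, Fezf2- of animal 3, held 75.7% of all Runx1 reads, and among tested genes 17.7% had at least 75% of their reads in 1 library.

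The Runx1 ratio moved strongly with these libraries. Pooled over the groups it was 123-fold higher in Fezf2- IT-PNs (95% exact counting interval, 33.9 to 1024). Leaving out animal 3 lowered the ratio to 30.5 (8.13 to 256), leaving out animal 5 gave 92.1 (25.2 to 765), and leaving out both gave 2.82 (0.537 to 27.8), an interval that includes 1. In the edgeR fit with the block the log2 fold change was -4.67 ± 2.35 (SE), with adjusted p = 0.999. Without the block it was -6.31 with adjusted p = 0.0931, which passes the threshold, and the adjusted p over all alternatives ranged from 0.0931 to 1.00. Without animal 3 the blocked estimate was -2.97 and without animal 5 it was -3.25. The paired exact permutation test gave a mean difference of 4.17 ± 4.82 (SD, n = 5) on the log2(CPM + 1) scale, with exact p = 0.125, again the lowest possible since animal 4 has no read in either library.

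**Figure D2:**
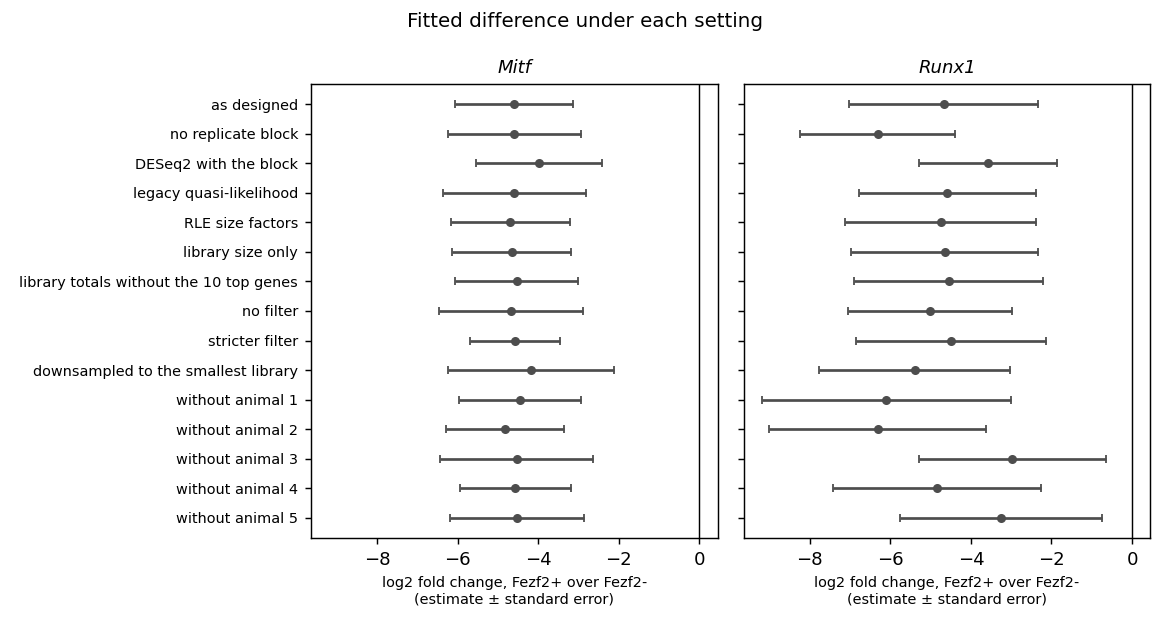
Fitted log2 fold change (Fezf2+ over Fezf2-) of Mitf and Runx1 with its standard error under each setting, including each animal left out in turn. The Mitf estimates lie between -4.81 and -3.98, whereas those of Runx1 range from -6.31 to -2.97, with the smallest when animal 3 is left out.

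Mitf and Runx1 were both highest in the Fezf2- libraries of animals 3 and 5. Mitf was at 271 CPM in animal 5 and 237 CPM in animal 3, a difference of 59 reads against 40 whose order is not settled, while Runx1 reached 1363 CPM in animal 3 and 299 CPM in animal 5. Across the 10 libraries the Pearson correlation of their log2(CPM + 1) values was 0.640, a description of libraries that share low depth and many zeros.

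Spi1, which encodes the ETS factor PU.1 at the top of the myeloid hierarchy, had no read in any Fezf2+ library. In Fezf2- IT-PNs it had 2, 1, 7, 0 and 0 reads for animals 1 to 5. A count of 0 over the 698816 reads of the Fezf2+ group allows a level of up to 4.29 CPM, and against that floor Spi1 was at least 2.72-fold higher in Fezf2- IT-PNs. The fitted value was -3.56 ± 2.24 (SE), with adjusted p = 0.999 by edgeR (Benjamini-Hochberg), a fold that depends on the prior count because 1 group is at 0. Without animal 3 only 3 reads were left, so no bound is given, and the fitted value of -2.54 ± 2.91 (SE) rests on those reads.

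Irf8, the interferon regulatory factor that directs monocyte and microglial development, was the only member with a count above the floor in a Fezf2+ library. It had 4 reads in the Fezf2+ library of animal 4 and none in the others, against 2, 3, 8, 2 and 0 reads in Fezf2- IT-PNs. The Fezf2- library was higher in 3 animals, lower in animal 4, and both libraries of animal 5 were at 0. The pooled ratio was 3.07 (95% exact counting interval, 0.977 to 12.7), which includes 1, and the fitted log2 fold change was -2.16 ± 1.81 (SE), with adjusted p = 0.999 by edgeR (Benjamini-Hochberg). Without animal 3 the ratio was 1.48 (0.377 to 6.90).

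The microglial identity factors were sparser still. Sall1, a zinc finger repressor that among brain myeloid cells marks microglia, was at 0 in all Fezf2+ libraries and had 1, 0, 11, 0 and 0 reads in Fezf2- IT-PNs, so 91.7% of its reads came from animal 3. Against the floor of 3 reads over the group this was at least 3.27-fold higher in Fezf2- IT-PNs, but without animal 3 a single read remained. Maf, a basic leucine zipper factor of macrophages and microglia, was at 0 in Fezf2+ libraries and had 2 reads each in the Fezf2- libraries of animals 1 and 3, at least 1.09-fold higher. Without animal 3 only 2 reads of Maf were left, and no bound is given. Its fitted value was -2.33 ± 2.35 (SE), with adjusted p = 0.999 by edgeR (Benjamini-Hochberg). Sall1 was not tested because it passed 10 CPM in 1 library.

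The remaining members were not detectable beyond single reads. Tfec, the MiT/TFE member most restricted to macrophages, had 1 read, in the Fezf2- library of animal 3. Tfeb, the broadly expressed regulator of lysosomal genes, had 1 read in the Fezf2+ library of animal 3, and Cebpa, the C/EBP factor of early granulocyte and monocyte development, had 1 read in the Fezf2+ library of animal 1. No fold is given for these genes, and neither their presence nor their absence can be read from such counts.

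**Figure D3:**
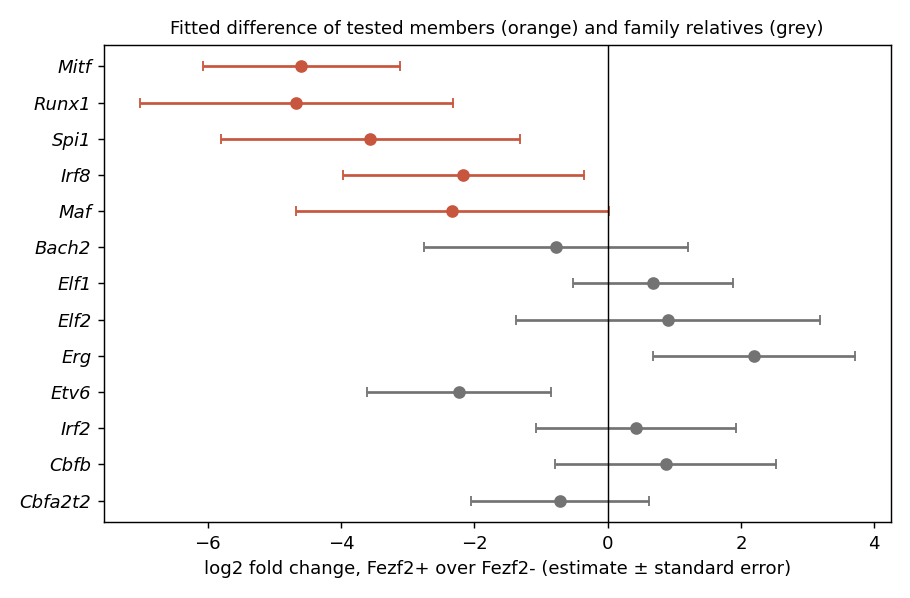
Fitted log2 fold change (Fezf2+ over Fezf2-) with its standard error for the 5 tested members, in orange, and for 8 relatives from the same families with at least 20 reads, in grey. The members lie between -4.67 and -2.16 and the relatives between -2.23 and 2.19; none passed the false discovery rate of 0.1, and the values of Spi1 and Maf depend on the prior count since their Fezf2+ libraries are at 0.

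Relative to the length of the longest annotated transcript, the order of total reads over the 10 libraries was Runx1 with 51.9 reads per kb, Mitf with 23.2, Irf8 with 5.48, Spi1 with 4.92, Sall1 with 2.28 and Maf with 0.629, followed by Tfeb with 0.427, Cebpa with 0.381 and Tfec with 0.296. The amplification was designed to give libraries biased to the 3′ ends of transcripts, in which reads need not scale with length, so this order is a description only. The neighbours Irf8 and Spi1, with 19 and 10 reads, are not separated by this order, nor are the last 3 genes with 1 read each. Mitf and Runx1 are also the longest loci, spanning 214 kb and 225 kb, against 2.64 kb for Cebpa and 33.4 kb for Spi1. Per kb of span, Runx1 had 1.35 reads, Irf8 0.934, Sall1 0.709 and Mitf 0.527. The totals on genes are about as large as the totals of aligned reads, many of which lay in introns, so intronic reads are very likely among those counted. What share they have in each member is not known, and the part of locus length in the read counts was not tested. Of the 9 members, 5 overlap another annotated gene (Irf8, Runx1, Maf, Mitf and Cebpa), none of the overlapping genes is in the table, and without stated strand use their reads cannot be told apart from those of the member.

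Of the family relatives, none passed the test. Mitf was the only MiT/TFE gene above a single read, since Tfe3 had none in any library. The RUNX partners with at least 20 reads were Cbfb, the common subunit, at 0.87 ± 1.66, and the corepressor Cbfa2t2 at -0.71 ± 1.34 (log2 fold change ± SE, Fezf2+ over Fezf2-). Among ETS factors Etv6 stood at -2.23 ± 1.39, Elf1 at 0.68 ± 1.20, Elf2 at 0.91 ± 2.28 and Erg, an endothelial ETS factor, at 2.19 ± 1.51. Irf2, the most abundant interferon regulatory factor with 93 reads, was at 0.42, and Bach2 was at -0.77 ± 1.98. None of these 8 had an unadjusted p under 0.05. The family lists include the members themselves, so that the MiT/TFE median is the value of Mitf and the MAF and BACH median that of Maf, and Spi1, Irf8 and Runx1 count in theirs. They had medians of -4.60 for MiT/TFE (1 gene tested), -2.33 for MAF and BACH (3 tested; -0.77 with genes absent from 1 group set at their bound), 0.68 for ETS (5 tested), -1.37 for IRF (4 tested) and -0.71 for RUNX and partners (3 tested), beside -0.16 over all tested genes; no SALL gene (3 reads in Fezf2+, 24 in Fezf2-) or C/EBP gene (1 and 2 reads) was tested. Without animal 4 the ETS median was -0.88 and the RUNX median 0.12.

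A list of 27 other transcription factors of myeloid cells gave a mixed picture. Of 17 tested, 2 reached an unadjusted p under 0.05, both lower in Fezf2+ IT-PNs, and the median log2 fold change was -0.92 (-0.88 with genes absent from 1 group set at their bound), or -0.03 without animal 3. The genes under 0.05 were Egr1, an immediate early gene also induced in neurons by activity, at -2.86 ± 1.13 (SE), and Ikzf1, the lymphoid and myeloid zinc finger factor Ikaros, at -2.89 ± 1.27 (SE), each with adjusted p = 0.999 by edgeR (Benjamini-Hochberg). Both were higher in the Fezf2- library of 5 of 5 animals. Ikzf1 had 7, 1, 2, 3 and 6 reads in Fezf2+ and 16, 5, 83, 10 and 290 in Fezf2- IT-PNs, highest in the same animals as Mitf and Runx1. The adjusted p of Egr1 ranged from 0.0954 by DESeq2, a call, to 1.00 by edgeR (Benjamini-Hochberg) without the filter, and that of Ikzf1 from 0.103 by edgeR (Benjamini-Hochberg) without the block to 1.00, with 0.131 by DESeq2. Rel was at -2.49 ± 1.42, while Smad4 at 1.02 ± 2.30 and Mef2a at 0.85 ± 1.45 pointed the other way. Zeb2, with the most reads of the list, was at -0.56 ± 2.21 and had 2102 of its 2493 reads in the Fezf2+ library of animal 5. Without the block Zeb2 pointed the other way, at 2.67 ± 1.70 (SE).

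Markers of microglia, like Mitf and Runx1, had more reads in Fezf2- libraries, and did so in more animals. All 25 listed markers had reads, 24 were tested, and their median log2 fold change was -3.99, beside -0.16 over all tested genes. None passed the adjusted threshold in the test with the block, and 17 reached an unadjusted p under 0.05, beside 2.29% of all tested genes in that direction. In 5 of 5 animals 18 of 25 were higher in the Fezf2- library, beside 2.6%, and in 14 of 25 the groups did not overlap, beside 0.81%. Without the block 14 were called, beside 2.15%. DESeq2 also called 14, beside 3.31% of genes with an adjusted p, but gave none to Aif1, Trem2, Siglech, Fcrls, Olfml3, Ly86 and Inpp5d. The summed level of the 25 markers was 483, 353, 203, 92.4 and 309.8 CPM in Fezf2+ libraries of animals 1 to 5. In Fezf2- libraries it was 8480, 7023, 9104, 17652 and 5406 CPM. Every Fezf2- library therefore lay above every Fezf2+ library, which the members did not show.

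Csf1r, the receptor through which microglia receive survival signals, had the smallest p of the marker list, at -6.97 ± 1.53 (SE). It was followed by the cathepsin gene Ctss at -6.28 ± 1.45 and the purinergic receptor gene P2ry12 at -6.30 ± 1.48; all 3 had an adjusted p of 0.995 by edgeR (Benjamini-Hochberg) and were higher in the Fezf2- library in 5 of 5 animals. By DESeq2 their adjusted p was 8.78e-05 for Csf1r and Ctss and 0.00107 for P2ry12, and by edgeR (Benjamini-Hochberg) without the filter, the highest of the alternatives tabulated for these genes, 0.452, 0.452 and 0.721. Trem2 and Cd68 were the only markers of the list with no read in Fezf2+ libraries. Lgmn, the most abundant marker with 2323 reads, was at -3.69. In the Fezf2- library of animal 4, Lgmn and Ptprc together gave 3242 of 3731 marker reads; without this pair of genes the sum there was 2314 CPM, still above the 322 CPM of the highest Fezf2+ library. The markers were chosen with earlier results of these data known, and the part of microglial RNA in the reads of the 9 factors was not tested.

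The members and the microglial markers did not keep a fixed ratio from library to library. Among Fezf2- libraries, reads of the 9 factors were 1.47%, 0.799%, 19.5%, 0.134% and 10.5% of the microglial marker reads for animals 1 to 5. In animal 4 the order depends on the pair Ptprc and Lgmn. With them the Fezf2- library of animal 4 had the highest marker level of its group and the lowest level of the factors, whereas without them its 2314 CPM was the lowest marker level too, and animal 3 had the highest value of both, at 8849 CPM for the markers. In Fezf2+ IT-PNs the corresponding values ran from 2.63% to 28.6%, on 1 to 4 factor reads per library.

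**Figure D4:**
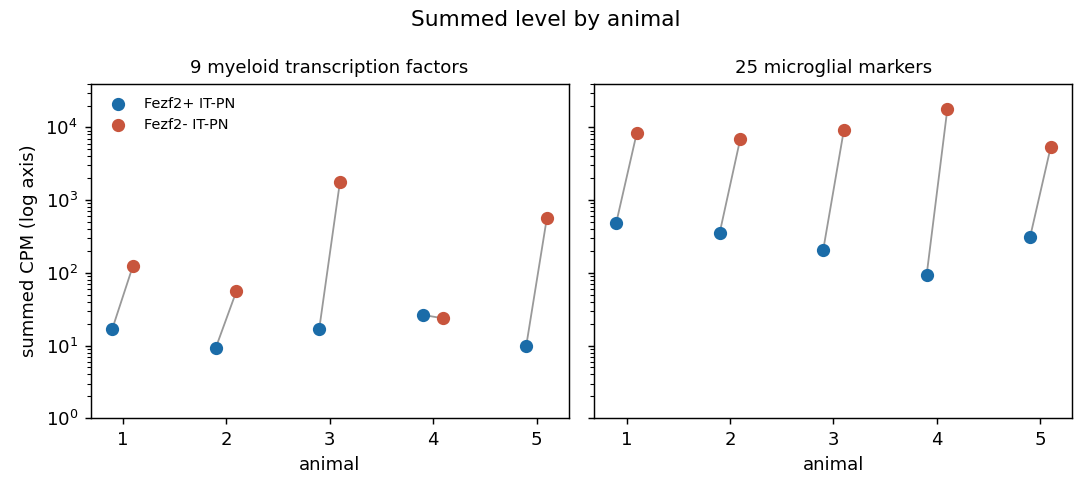
Summed level of the 9 factors and of the 25 microglial markers in each animal on a log axis in CPM, with a line joining the Fezf2+ (blue) and Fezf2- (orange) libraries. The marker sums are apart in all 5 animals, from 92.4 to 483 CPM against 5406 to 17652 CPM, whereas the factors lie together in animal 4 at 26.4 and 23.7 CPM.

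Markers of macrophages at the borders of the brain and of blood myeloid cells had almost no reads. Of 13 markers, 8 had none in any library, among them Lyve1, Cd163, Ccr2, S100a8, S100a9 and Lyz2, and the sums were 11 reads in Fezf2+ and 16 in Fezf2- IT-PNs. F13a1, the most abundant with 16 reads, was at 0.62 ± 1.22, and the mannose receptor gene Mrc1 at -0.35 ± 2.56; the median of these, the only tested pair, was 0.13. Of the red cell genes, 6 were tested, all of them haemoglobin genes, while Alas2 had 2 reads and was not tested. All 6 were lower in Fezf2+ IT-PNs at an unadjusted p under 0.05, with a median of -4.02. The summed level of the red cell list was 7093, 5609, 367, 478 and 9.19 CPM in Fezf2- libraries of animals 1 to 5. It was highest in animals other than those with the most Runx1 and Mitf reads. In Fezf2+ libraries the sum was 1507, 186, 16.9, 0 and 0 CPM. Hba-a1 led the list at -4.02 ± 1.31, with the same counts as Hba-a2 in every library, so the paralogs cannot be told apart. Likewise Hbb-bs, with 410 reads, had the same counts as Hbb-b1, and Hbb-bt the same as Hbb-b2, so the 6 genes are 3 distinct patterns. Without the block the Hbb genes did not reach an unadjusted p under 0.05, and DESeq2 called Hba-a1 and its copy at adjusted p = 0.0694 (Benjamini-Hochberg), while edgeR gave 0.272 without the block and 1.00 without the filter. What part blood has in the member reads was not tested.

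For most other brain cells, no listed marker reached an unadjusted p under 0.05. Interneuron markers (2 of 14 tested, median 0.71, led by Sox6 at 2.10 ± 1.39), endothelial markers (4 of 11 tested, median 0.18, led by Flt1 at 1.08), astrocyte markers (7 of 9 tested, median 1.21, led in reads by Slc1a3 at 1.70 ± 1.86) and oligodendrocyte markers (7 of 10 tested, median 0.39) were without such a gene. The same was true of oligodendrocyte precursors (6 of 6 tested, median 0.87, led by Pdgfra at -0.08 ± 1.10), and no pericyte marker of 5 was tested (7 reads in Fezf2+ and 4 in Fezf2-, led by Pdgfrb). Among the oligodendrocyte markers, Mbp was higher in the Fezf2+ library in 5 of 5 animals, at 2.10 ± 1.17 (SE). Cortical projection neuron markers had 321 reads in Fezf2+ and 2991 in Fezf2- IT-PNs, with the highest sum in animal 3, the library that also held most member reads. In level the sums were 855, 474, 609.8, 409 and 172 CPM in Fezf2+ and 5789, 404, 11179, 336 and 119 CPM in Fezf2- libraries of animals 1 to 5, so the groups overlapped. The list had a median of -0.63 over 11 tested of 17, or 0.65 without animal 3. Foxp2, a factor of deep-layer neurons, was their most abundant gene and the only one with an unadjusted p under 0.05, at -3.56 ± 1.41 (SE; adjusted p = 0.999 by edgeR, Benjamini-Hochberg). Of its 1280 reads, 560 and 665 came from the Fezf2- libraries of animals 1 and 3, and it was higher in the Fezf2- library in 5 of 5 animals. DESeq2 called Foxp2 at adjusted p = 0.0668, while edgeR gave 0.169 without the block and 1.00 without the filter (Benjamini-Hochberg). Rorb had 646 and Camk2a 529 reads in the Fezf2- library of animal 3, and Cux1 had 371 in that of animal 1. Not all markers went this way, and the fitted values ran from -3.56 to 1.82. Snap25 had 35, 7, 5, 1 and 2 reads in Fezf2+ and 1, 0, 4, 1 and 6 in Fezf2- libraries. Syt1 had 2, 30, 10, 3 and 9 reads against 5, 6, 5, 2 and 0. The part of any of these cells in the member values was not tested.

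**Figure D5:**
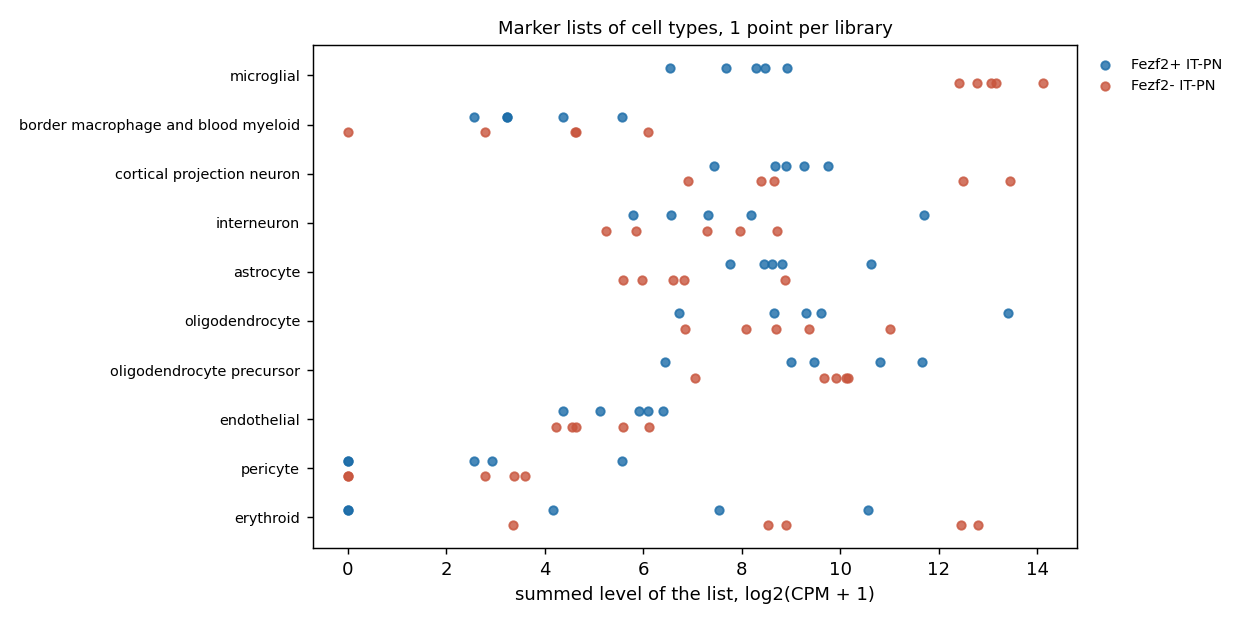
Summed level of each marker list as log2(CPM + 1), with 1 point per library, Fezf2+ in blue and Fezf2- in orange. Only for microglial markers are the 5 libraries of each type apart; border macrophage and blood myeloid markers are near the floor in both.

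Upstream of these factors, the CSF1 and TGF-beta list had 7 of 12 genes tested, with a median of -1.09, or -0.50 with genes absent from 1 group set at their bound. Its 1 gene with an unadjusted p under 0.05 was Csf1r, already given as a microglial marker. Tgfbr2, a receptor for TGF-beta, was at -2.93 ± 1.57 and Csf2ra at -2.64 ± 2.35 with no read in Fezf2+ libraries, while Tgfb3 at 1.46 ± 2.20 and Tgfbr1 at 1.18 ± 1.71 pointed the other way. The ligand gene Csf1 had no read in any library.

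Regulators that hold MiT/TFE proteins in the cytoplasm or release them, such as mTORC1, the Rag GTPases and calcineurin, showed no common direction. Of 20 genes 15 were tested, with a median of 0.09 (0.12 with bounds). Ppp3r1, the regulatory subunit of calcineurin, was the only one with an unadjusted p under 0.05, at 3.21 ± 1.19 (SE; adjusted p = 0.999 by edgeR, Benjamini-Hochberg). It was higher in the Fezf2+ library in 5 of 5 animals, although animal 4 had 2 reads in each library, separated only by the library totals. Reads of Ppp3r1 were 56, 73, 6, 2 and 30 in Fezf2+ and 6, 3, 2, 2 and 1 in Fezf2- IT-PNs. DESeq2 called it at adjusted p = 0.0876 and edgeR without the block at 0.0931, while edgeR without the filter gave 1.00. Rptor was at -3.05 ± 1.81 and Rraga at 3.19 ± 2.18, a value that depends on the prior count as Rraga had 5 reads in Fezf2+ and 0 in Fezf2- libraries, and Fnip2, with the most reads, was at -1.54 ± 1.81.

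Downstream, genes of the lysosomal network of Tfeb and its relatives were tested in 25 of 30 cases, with a median of -0.96 (-1.02 with bounds). Of these, 3 had an unadjusted p under 0.05, all lower in Fezf2+ IT-PNs. Among them, Hexa at -2.90 ± 1.32 and Ctsd at -3.76 ± 1.79 (SE) each had adjusted p = 0.999 by edgeR (Benjamini-Hochberg). Uvrag had the most reads, 1552, at -4.19 ± 2.33, and Map1lc3b at 0.79 pointed the other way. Of the melanocyte programme of Mitf, the pigment genes Tyr, Tyrp1, Mlana and Slc45a2 had no read in any library, while Dct had 6 reads and Pmel 27, of which 23 were in Fezf2+ libraries. Of 10 such genes 4 were tested, with a median of 1.73 and none under 0.05, among them Kit at 1.76 ± 1.38, Pmel at 2.21 ± 1.75 and Ednrb at 1.71 ± 2.24. Most reads of Kit and Ednrb, 123 and 115, came from the Fezf2+ library of animal 4. The list also holds Sox10 and Pax3, so it is one of melanocyte genes and not of Mitf targets alone.

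Genes with the most similar pattern were sought among 4290 tested genes outside the group with at least 20 reads, by Pearson correlation of log2(CPM + 1) over the 10 libraries. For Mitf the top 5 were 4732471J01Rik (0.974), Lin9 (0.923), Rap1b (0.922), Mical3 (0.912) and Vwa5a (0.887). For Runx1 they were Ang (0.928), Cd84 (0.908), Ifitm10 (0.907), Tmem206 (0.903) and Rnase4 (0.869), of which Ang and Rnase4 are neighbouring genes that share promoters. For the summed CPM of the group they were Btk (0.921), Klhl7 (0.919), Ikzf1 (0.902), and Rps27 and Rps27rt (0.896 each), which had the same counts in every library. Cd84, a receptor of haematopoietic cells, had 363 of its 379 Fezf2- reads in the Fezf2- library of animal 3, and Ifitm10 had 1225 and 4494 reads in those of animals 3 and 5. These correlations are descriptions of libraries that share depth and a few high values.

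Promoter windows were read to show what sequence lies upstream of the members that carry most reads. RefSeq entries of GRCm38.p6 were found for 7 of the 9 genes, in 15 windows, and none for Spi1 and Maf. In the 250 bases before each start both strands were searched for the E-box CACGTG and the related CATGTG bound by MiT/TFE proteins, the RUNX site TGTGGT, the PU.1 site GAGGAAGT, the IRF site GAAANNGAA, the C/EBP site TTGCGCAA and the MAF core TGCTGA. Mitf lies on chromosome 6 (chr6:97807052-98021349, plus strand) and Runx1 on chromosome 16 (chr16:92601466-92826149, minus strand). Capitals mark matches, each sequence runs 5′ to 3′ on the strand of the gene, and the counts cannot tell which start was used. The Mitf windows at chr6:97806808-97807057, chr6:97929567-97929816 and chr6:97991533-97991782 lie before the 3 starts with an entry, the later ones inside the gene. Any other start of Mitf was not examined. The Runx1 window at chr16:92697330-92697579 lies inside the gene before the inner start. For the outer Runx1 start, 30 bases around its match at chr16:92826128-92826157 are shown.
Mitf, first start: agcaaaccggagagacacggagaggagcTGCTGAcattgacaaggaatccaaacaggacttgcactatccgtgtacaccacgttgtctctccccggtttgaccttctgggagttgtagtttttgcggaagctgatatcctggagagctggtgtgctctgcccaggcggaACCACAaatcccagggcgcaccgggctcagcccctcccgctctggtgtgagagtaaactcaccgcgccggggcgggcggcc
Mitf, second start: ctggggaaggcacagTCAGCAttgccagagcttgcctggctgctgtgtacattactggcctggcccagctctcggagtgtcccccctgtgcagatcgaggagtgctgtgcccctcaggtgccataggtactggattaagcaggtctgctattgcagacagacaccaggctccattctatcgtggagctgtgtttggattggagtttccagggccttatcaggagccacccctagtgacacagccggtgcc
Mitf, last start: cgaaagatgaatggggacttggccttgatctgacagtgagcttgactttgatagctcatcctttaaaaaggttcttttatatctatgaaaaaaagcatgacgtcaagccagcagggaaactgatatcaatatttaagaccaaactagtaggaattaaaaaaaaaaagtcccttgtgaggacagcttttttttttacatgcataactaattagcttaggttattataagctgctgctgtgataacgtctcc
Runx1, inner start: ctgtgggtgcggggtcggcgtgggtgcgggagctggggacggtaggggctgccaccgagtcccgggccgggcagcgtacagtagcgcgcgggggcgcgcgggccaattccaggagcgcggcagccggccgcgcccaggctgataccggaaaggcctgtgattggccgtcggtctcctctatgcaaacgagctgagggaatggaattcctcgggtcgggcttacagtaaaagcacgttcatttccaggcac
Runx1, outer start: catcacttaagtCACGTGattggcaagagc

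The first Mitf window held 1 MAF core, 222 bases before the start, and 1 RUNX site on the opposite strand, 81 bases before it, and the second held a MAF core on the opposite strand. The last Mitf window and the inner Runx1 window held none of the 7 motifs, and the outer Runx1 window held the only CACGTG among the 15, 71 bases before the RefSeq start and inside the gene as GENCODE places it. Over all 32851 windows in the table, CACGTG was found in 6.02%, CATGTG in 12.3%, TGTGGT in 14.0%, GAGGAAGT in 2.44%, GAAANNGAA in 7.13%, TTGCGCAA in 0.164% and TGCTGA in 16.1%. Such short matches are common, and a match is a description of letters in the window.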

How the data were processed

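The deposited counts are whole reads per gene. After demultiplexing and trimming, the authors aligned reads with TopHat2 2.1.1 to mm10 or the ERCC spike-ins and took unnormalized counts over RefFlat genes with bedtools 2.26.0 (versions from the submitters' processing notes); use of strand is not given, and reads in introns are very likely included. A further deposited table with the authors' DESeq2 comparison (mean counts, log2 fold changes, p-values) was not used.

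CPM were computed on each library's total. Genes reaching 10 CPM in 2 or more libraries were TMM-normalized and tested with edgeR 4.0.16 (R 4.3.3; glmQLFit, glmQLFTest), with the animal as a block and type as the factor, and p-values were adjusted by Benjamini-Hochberg over all tested genes. DESeq2 1.42.0 was an alternative. The pairing by animal comes from the labels and the study's methods; deviations of libraries of the same animal correlated at 0.0283 on average, against -0.00704 for other pairs. Single members were compared by an exact sign-flip permutation test of log2(CPM + 1). Pooled ratios carry exact 95% conditional binomial intervals, and groups at 0 were set at 3 reads over the group. The edgeR procedure was tested on simulated data.

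The members and the gene lists were chosen with earlier results of these data known. The text names all members, family relatives with at least 20 reads, the most abundant gene and the 3 smallest p of each other list with up to 2 genes of opposite direction (results of some of these are not reported here), and the 5 genes most like Mitf, Runx1 and the summed CPM. Loci follow GENCODE M21. Alternatives covered the block, the tool, the quasi-likelihood method, scaling, filter, depth, pseudocount, threshold and each animal left out. P-values rest on the spread between 5 animals with 1 library of each type.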

Additional observations from a re-analysis of the deposited data

Results flagged for a closer look

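In 4 of the 10 group values examined, the highest library stood apart from the rest of its group, with a gap to the next library above 0.71 of the whole range; for normally distributed values chance gives about 1 in 20. That rate does not hold for sparse counts, where a gene with reads in a single library always passes, so the values are given as a description. The values examined were each member with at least 3 reads in a library, the sum of the members and the sum of the microglial markers. In the Fezf2- library of animal 3, Runx1 was at 1363 CPM (230 reads) against 299 CPM in the next library, Sall1 at 65.2 CPM (11 reads) against 5.96 CPM, and Spi1 at 41.5 CPM (7 reads) against 11.9 CPM. In the Fezf2+ library of animal 4, Irf8 was at 26.4 CPM, which is 4 reads, with 0 in the other libraries of that type.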

How the results depend on the processing

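The 5 tested members could be fitted 66 times under the alternatives. The sign was free to turn only for Mitf, Runx1 and Irf8, where it did not, since Spi1 and Maf had no read in Fezf2+ libraries. Of the 66 fits 1 passed the threshold: Runx1 without the replicate block, at -6.31. The pairing mattered for the count over all genes. It was 0 with the replicate block and 279 with no replicate block, while DESeq2 with the block called 98 of the 1664 genes to which it gave an adjusted p (NA for Spi1, Irf8 and Maf); the cause was not tested. The count was 0 in the other alternatives, the stricter filter (30 CPM in 3 libraries), a false discovery rate of 0.05 and each animal left out among them, with 178 to 345 genes at an unadjusted p under 0.05. The block changed no other member's call. Irf8 ranged from -4.50 to -1.24 and Spi1 from -3.99 to -2.54 with 1 animal left out. Under the stricter filter Irf8, Spi1 and Maf, and after downsampling Maf, could not be fitted. With a pseudocount of 10 in place of 1, the mean paired level difference was 2.27 for Mitf and 2.70 for Runx1. Library totals without the 10 most abundant genes moved the median of all genes from -0.16 to -0.06. The summed level of the members, as a mean log2 difference of 3.50 ± 2.72 (SD, n = 5), was between 2.71 and 4.41 with 1 animal left out and 2.10 without Runx1 and Mitf, the lowest value obtained. With 1 animal left out, the list medians moved by less than the spread between animals in 96 of 100 cases, a lenient measure, with exceptions for ETS factors (-0.88 to 1.12) and cortical projection neuron markers (-1.06 to 0.65). The sign also turned for RUNX and partners (-1.47 to 0.12), oligodendrocyte markers (-0.73 to 0.69), mTORC1, Rag and calcineurin regulators (-0.54 to 0.74), border macrophage and blood myeloid markers (-0.67 to 0.99) and endothelial markers (-0.43 to 0.66), and other myeloid factors ranged from -1.83 to -0.03. Depth limits all of this: 1 read was worth up to 11.2 CPM, so levels of most members are a few reads.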

Other observations

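Several genes of the lists owed most of their reads to 1 library, as did Runx1, Sall1 and 44.3% of all tested genes. Zeb2, a zinc finger homeodomain factor, had 84.3% of its reads in the Fezf2+ library of animal 5, Nfkb1 had 89.8% in the Fezf2- library of animal 5, and Fnip2 had 69.5% and Gusb 98.9% in the Fezf2- library of animal 2. Kit and Slc1a3 had 76.4% and 87.8% in the Fezf2+ library of animal 4. These genes, chosen after their values were seen, peaked in libraries of both types and of different animals. The ERCC spike-in transcripts took between 2.79% and 46.7% of the combined reads of a library, with the highest share in the Fezf2+ library of animal 1 and the lowest in the Fezf2- library of animal 5.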
